A study of Homo sapiens with 6 samples.

Results

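The 8 genes described here encode adrenergic receptors, the cell surface receptors for adrenaline and noradrenaline, and were measured in NCRM-1 human iPSC aggregates after 4 days in vertical wheel bioreactors. They were selected on a measured value of these data: ADRA2A had one of the largest falls with the additives, and ADRA1A, ADRA1B, ADRA1D, ADRA2B, ADRA2C, ADRB1 and ADRB3 were taken with it by name. They are 8 of the 19977 genes in the count files, matched through their Ensembl identifiers to GENCODE 44 symbols. All 8 passed the filter used before testing, 10 or more counts summed over the 6 libraries. RNA came from 3 samples grown in Essential 8 (E8) medium to which 10 mg/ml polyethylene glycol and 0.1 µg/ml heparin were added (PEG and HS) and 3 samples in E8 alone (E8 control), of wild type genotype and seeded as single cells, with 50% of the medium exchanged on day 2. The treatment text of the labels describes both additives for all 6 libraries, so the treatment field was followed. The labels speak of a control and a treated bioreactor in the singular without stating if replicates had vessels of their own. If they had not, the vessel cannot be told apart from the medium, and each error and p-value covers only the spread between the samples.

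Adrenergic receptors are G protein-coupled receptors. The alpha-2 receptors act mainly through Gi and Go and lower cAMP, the beta receptors act mainly through Gs and raise cAMP, and the alpha-1 receptors act mainly through Gq and phospholipase C. In adult tissue they carry sympathetic signals to the heart, vessels and brain, and ADRA2A is also the autoreceptor that limits noradrenaline release.

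Libraries held 26991279 to 36185138 counts, and the ranges of the media overlapped. CPM are counts scaled to library size adjusted by a normalization factor (TMM). The iPSC identity given in the labels was checked with 9 pluripotent stem cell markers. These markers summed to 10048 to 10241 CPM in PEG and HS and 10112 to 10273 CPM in E8 control. POU5F1, which encodes OCT4, was at 1921 ± 27.8 and 1635 ± 27.9 CPM (SD, n = 3 each, LFC 0.23, SE 0.024, adjusted p = 3.2e-06). Of the 9 markers 4 were called higher and 3 lower, so the sums hide changes in both directions. NANOG was higher (185 ± 1.76 against 126 ± 0.610 CPM, log2 fold change 0.55), while SOX2 (273 ± 3.92 against 412 ± 11.8 CPM, -0.59), PODXL (-0.41) and LIN28A (-0.30) were lower. All adjusted p come from edgeR's quasi-likelihood test over the 16505 genes tested, and log2 fold changes (LFC) are PEG and HS over E8 control. Transcripts were counted in bulk RNA, so fewer cells of a kind and less RNA in each cell cannot be told apart.

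Promoter windows of RefSeq (GRCh38.p14, 250 bases before to 50 bases after the annotated start) were at hand for 4 of the 8 genes, ADRA2A, ADRA2C, ADRA1B and ADRB1. The 250 bases before the start are shown for the 2 alpha-2 genes, since ADRA2A was the gene that the receptors were chosen for and ADRA2C was the next most abundant receptor in E8 control. ADRA2A is on the plus strand at chr10:111076779-111077028 and ADRA2C on the plus strand at chr4:3766135-3766384. Both are written 5′ to 3′, and capitals mark the GC box GGGCGG and the TATA box TATAAA, each searched on both strands. The matches do not overlap.
ADRA2A: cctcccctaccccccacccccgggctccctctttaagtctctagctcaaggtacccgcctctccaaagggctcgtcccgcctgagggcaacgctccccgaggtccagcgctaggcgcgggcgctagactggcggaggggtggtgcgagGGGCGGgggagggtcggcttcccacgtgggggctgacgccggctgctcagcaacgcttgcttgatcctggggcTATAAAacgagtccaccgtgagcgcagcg
ADRA2C: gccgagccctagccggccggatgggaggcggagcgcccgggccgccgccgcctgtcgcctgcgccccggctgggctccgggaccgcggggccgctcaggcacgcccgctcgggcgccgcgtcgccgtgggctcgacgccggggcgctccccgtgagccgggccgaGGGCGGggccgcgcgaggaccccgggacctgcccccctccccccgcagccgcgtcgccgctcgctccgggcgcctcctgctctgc
The ADRA2A window held 1 GC box, beginning 102 bases before the start, and 1 TATA box, beginning 29 bases before it. The ADRA2C window held 1 GC box, beginning 85 bases before the start, and no TATA box. The GC box was present in 45% and the TATA box in 11.5% of the 35116 RefSeq windows of the same length. Neither gene's window, nor that of ADRA1B or ADRB1, held the cAMP response element TGACGTCA, which 1.85% of windows held, or on either strand the bicoid-type homeodomain motif GGATTA, which 6.36% held. GC content was 69.3% for ADRA2A, 71.3% for ADRB1, 76.3% for ADRA1B and 83.0% for ADRA2C, against a median of 58.7% over all windows. These matches describe the sequence only.

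ADRA2A (ENSG00000150594, GRCh38 chromosome 10, 111077029 to 111080907) is a gene of 1 exon, and 0.468% of its 31-base words occur in transcripts of other genes. Its counts were 1171, 1560 and 1629 in the E8 control replicates and 77, 70 and 115 in the PEG and HS replicates. In CPM it was at 43.4, 48.0 and 45.1 in E8 control and 2.28, 2.48 and 3.40 in PEG and HS. The groups lay far apart, and PEG and HS replicate 3 was the highest of its group. The means were 45.5 ± 2.33 CPM and 2.72 ± 0.596 CPM (SD, n = 3 each), a 16.7-fold lower level in PEG and HS (LFC -4.06, SE 0.092). This is the value by which ADRA2A was chosen, so it is given without a test. Among the 13336 genes with at least 1 CPM in each E8 control library, ADRA2A was number 3 by size of fall. The 2 genes ahead of it, F8A3 (107, 109 and 118 counts in E8 control) and WFIKKN2 (52, 50 and 49 counts), had 0 counts in each PEG and HS library, and F8A3 has a copy, F8A2, whose transcripts cannot be told from its own. The 2 genes behind it were CYP26A1, a retinoic acid hydroxylase, and the cadherin CDH9, with LFCs of -3.99 (SE 0.099) and -3.91 (SE 0.27).

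ADRA2B (ENSG00000274286, chromosome 2, 96112876 to 96116571) and ADRA2C (ENSG00000184160, chromosome 4, 3766348 to 3768526), the other alpha-2 receptors, are also genes of 1 exon. ADRA2C, which shares the coupling of ADRA2A to Gi, had 170, 210 and 240 counts in E8 control and 222, 169 and 220 in PEG and HS. The 2 media overlapped, at 6.47 ± 0.175 and 6.36 ± 0.327 CPM (LFC -0.026, SE 0.086). ADRA2C thus had the smallest log2 fold change of the family in absolute size. ADRA2B was at 6.97, 6.86 and 4.88 CPM in E8 control and 5.07, 5.13 and 5.02 CPM in PEG and HS. E8 control replicate 3 lay below all 3 PEG and HS libraries, while replicates 1 and 2 lay above them. The means were 6.24 ± 1.18 and 5.08 ± 0.0542 CPM (LFC -0.29, SE 0.13).

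Of the alpha-1 receptors, ADRA1A (ENSG00000120907, chromosome 8, 26748150 to 26867278) had 32, 28 and 47 counts in E8 control and 22, 14 and 15 in PEG and HS. The groups did not overlap, at 1.12 ± 0.228 and 0.530 ± 0.109 CPM (LFC -1.07, SE 0.29). Of the 31-base words of ADRA1A, 3.12% occur in transcripts of other genes, 5453 in number. ADRA1A also overlaps a processed pseudogene on its own strand, COX6B1P4. ADRA1D (ENSG00000171873, chromosome 20, 4220630 to 4249287) had 24, 31 and 50 counts in E8 control and 30, 29 and 29 in PEG and HS, and the groups overlapped. Its level was 1.08 ± 0.270 against 0.924 ± 0.0898 CPM (LFC -0.24, SE 0.26), and -0.00 without E8 control replicate 3. ADRA1B (ENSG00000170214, chromosome 5, 159865080 to 159973012) was close to undetected, with 0, 3 and 1 counts in E8 control and 5, 0 and 3 in PEG and HS. With 12 counts in all, a difference in ADRA1B was not detectable at this depth.

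The beta receptors were near the limit of detection too. ADRB1 (ENSG00000043591, chromosome 10, 114043866 to 114046904), the main beta receptor of the heart, had 1, 2 and 3 counts in E8 control and 3, 5 and 0 in PEG and HS. ADRB3 (ENSG00000188778, chromosome 8, 37962990 to 37966599), known from fat tissue, had 1, 5 and 4 counts in E8 control and 3, 0 and 0 in PEG and HS. ADRB3 shares 23.7% of its 31-base words with transcripts of other genes and overlaps another protein-coding gene on its own strand, so its few reads are uncertain. Media overlapped for both receptors, and 14 and 13 counts in all do not allow a difference to be read.

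**Figure D1:**
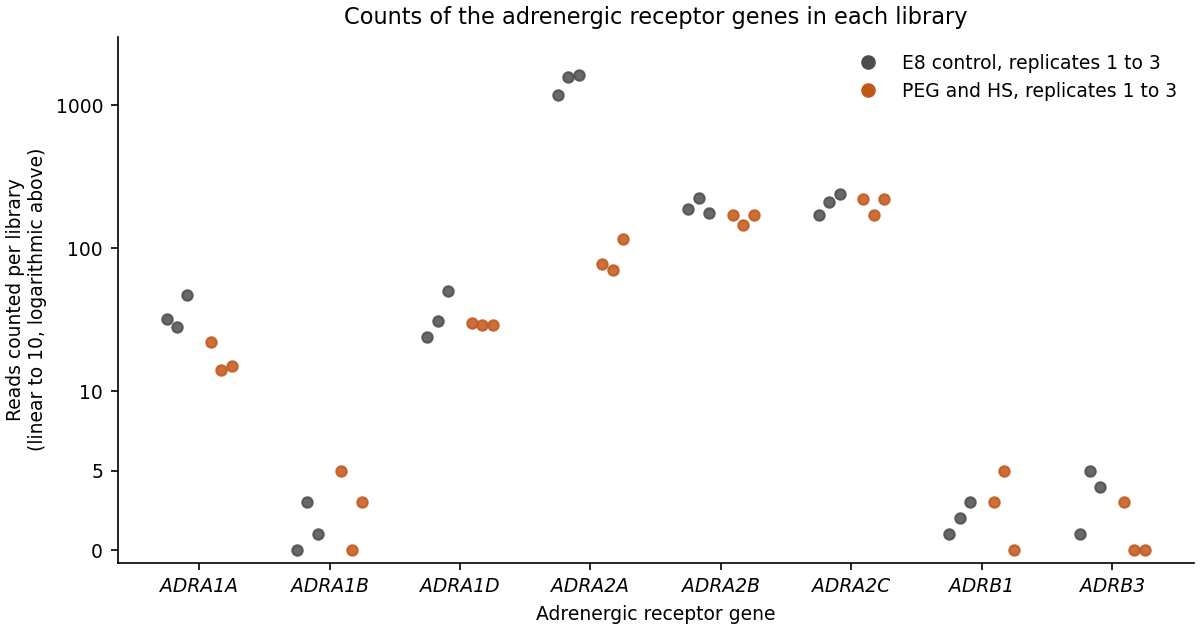
Reads counted on each adrenergic receptor gene in each of the 6 libraries, not scaled to depth; the vertical axis is linear to 10 and logarithmic above. ADRA2A shows the widest gap between the media: 1171 to 1629 counts in E8 control against 70 to 115 in PEG and HS.

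Over the receptors, 2 of 8 passed an adjusted p of 0.05, ADRA2A and ADRA1A, both lower in PEG and HS, where 25.3% of all genes tested passed in either direction, 13.1% lower and 12.2% higher. In the same 2 genes the groups did not overlap, which held for 39.3% of all genes tested. ADRA1A no longer passed without PEG and HS replicate 3, which left 1 of the receptors. Because ADRA2A was chosen on this contrast and the others came with it, nothing is read from these counts. Fitted fold changes were below 0 for 6 receptors and above 0 for 2, with a median of -0.26. These include ADRA2A itself and ADRA1B, ADRB1 and ADRB3, whose few counts allow no difference to be read. No trend of the family is therefore read from them.

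Levels of different genes were compared as CPM per kb of exon. In E8 control the order was ADRA2A (11.7 ± 0.60 CPM per kb, SD, n = 3), ADRA2C (2.97 ± 0.0803), ADRA2B (1.69 ± 0.319), ADRA1D (0.358 ± 0.0898) and ADRA1A (0.166 ± 0.0338), each without overlap with the next. ADRB3, ADRB1 and ADRA1B followed at 0.035, 0.020 and 0.013 CPM per kb, and these neighbours overlapped. In PEG and HS, ADRA2C (2.92 ± 0.150 CPM per kb) came first and ADRA2B (1.37 ± 0.0147) second, ahead of ADRA2A (0.701 ± 0.154), ADRA1D (0.308 ± 0.0299) and ADRA1A (0.0786 ± 0.0161), again without overlap between neighbours down to ADRA1A. So the most abundant adrenergic receptor transcript of these aggregates was ADRA2A in E8 control and ADRA2C in PEG and HS. By coding length in place of exon length, ADRA2B stood ahead of ADRA2C in E8 control, so the order of these 2 depends on the length used.

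ADRA2A made up 70.1%, 72.0% and 72.7% of the alpha-2 signal per kb in the E8 control replicates and 11.8%, 13.4% and 16.8% in the PEG and HS replicates. The summed level of the 8 receptors was 17 ± 0.679 CPM per kb in E8 control and 5.44 ± 0.180 in PEG and HS. Without ADRA2A the sums were 5.25 ± 0.137 and 4.74 ± 0.144 CPM per kb. The lower sum in PEG and HS was thus mostly ADRA2A.

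**Figure D2:**
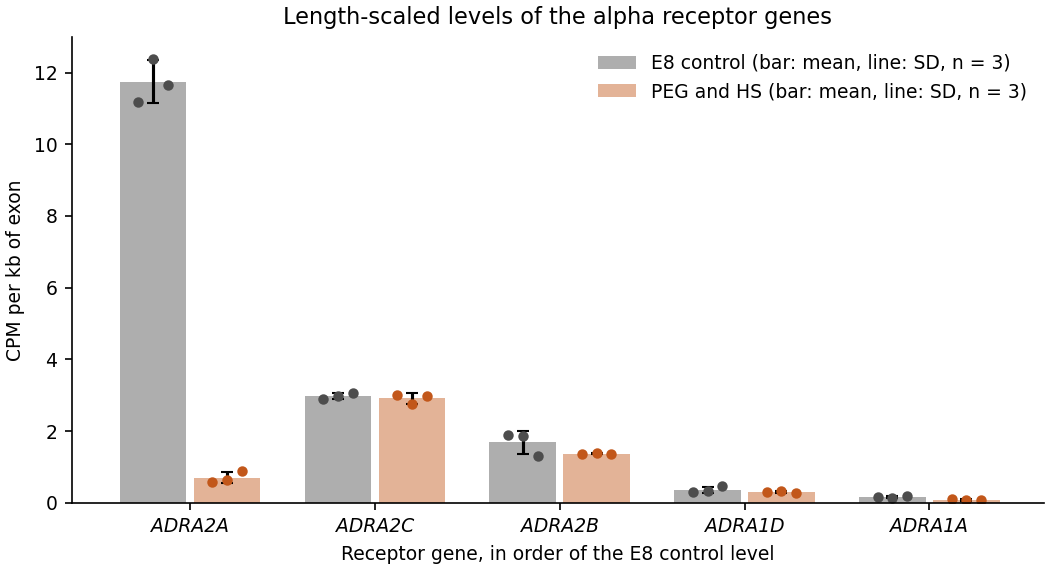
CPM per kb of exon for the 5 alpha receptor genes with the highest levels, with a bar for the mean, a line for the SD (n = 3) and a point for each library. In E8 control ADRA2A stands above ADRA2C (11.7 against 2.97 CPM per kb), and in PEG and HS it stands below ADRA2C and ADRA2B (0.701 against 2.92 and 1.37).

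The genes nearest to ADRA2A in pattern were sought among genes with at least 1 CPM in each E8 control library, by the Euclidean distance between log2(CPM + 0.5) profiles centred on their own mean over the 6 libraries. The nearest was SERPINB9, an inhibitor of granzyme B, at a distance of 0.137. SERPINB9 was at 259.8, 287 and 287.5 CPM in E8 control against 17.3, 16.8 and 24.2 CPM in PEG and HS, and like ADRA2A it was highest of the PEG and HS libraries in replicate 3 (LFC -3.83, SE 0.083). CYP26A1 followed at a distance of 0.563, with 23.2 ± 0.328 CPM in E8 control against 1.47 ± 0.313 with the additives. The protocadherins PCDH7 (distance 0.913) and PCDH8 (0.970), which are cell adhesion molecules, and FAM20A (0.978), a secretory pathway pseudokinase, came next. Their LFCs were -3.28 (SE 0.094), -3.59 (SE 0.13) and -3.83 (SE 0.13). PCDH7 and PCDH8 were also highest of the PEG and HS libraries in replicate 3, while CYP26A1 and FAM20A were not. Likeness here is a description over 6 libraries of 2 media, which are few points, and large falls weigh most in it. The same 5 genes came out with a pseudocount of 2.

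**Figure D3:**
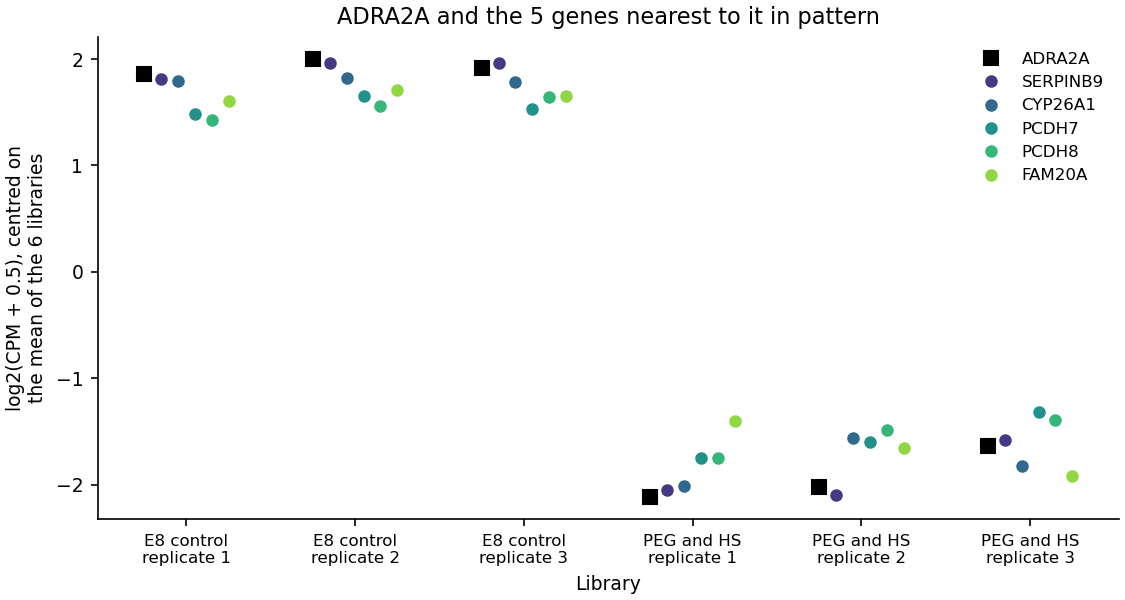
Profiles of ADRA2A (squares) and of the 5 genes nearest to it over the 6 libraries, as log2(CPM + 0.5) centred on each gene's mean; small sideways offsets only separate the symbols. SERPINB9 follows ADRA2A most closely (distance 0.137), including the highest PEG and HS value in replicate 3. PCDH7 and PCDH8 are also highest there, and CYP26A1 and FAM20A are not.

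The 8 genes of the files that start within 1 Mb of ADRA2A all lie on its lower-coordinate side and all were tested. A start is here the lower coordinate of a gene, which for the minus-strand genes BBIP1 and SMNDC1 is the 3′ end. The closest, SHOC2, a scaffold of RAS signalling 157.7 kb away, had 33.1 ± 0.449 CPM with the additives and 34.6 ± 0.359 without (LFC -0.061, SE 0.041, adjusted p = 0.324). BBIP1, a BBSome subunit, had a LFC of 0.11 (SE 0.066, adjusted p = 0.24). PDCD4, an inhibitor of translation initiation 205.2 kb away, was lower in PEG and HS (23.1 ± 0.815 against 26.7 ± 1.05 CPM, LFC -0.20, SE 0.052, adjusted p = 0.00862). DUSP5, a nuclear phosphatase of ERK 579.1 kb away, was higher (46.7 ± 1.77 against 26.2 ± 1.15 CPM, LFC 0.83, SE 0.048, adjusted p = 4.01e-09). The remaining neighbours did not pass. RBM20, a splicing factor, had a LFC of -0.20 (SE 0.3, adjusted p = 0.686), the cohesin subunit SMC3 -0.083 (SE 0.031, adjusted p = 0.0646), the splicing factor SMNDC1 -0.068 (SE 0.041, adjusted p = 0.25) and the MAX-binding repressor MXI1 0.15 (SE 0.066, adjusted p = 0.115). SMC3 passed without E8 control replicate 2 (adjusted p = 0.0374) and without PEG and HS replicate 3 (adjusted p = 0.05 as rounded). None of the 8 had a fall near that of ADRA2A. ADRB1, 2.97 Mb from ADRA2A on the same chromosome, had too few counts to compare.

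**Figure D4:**
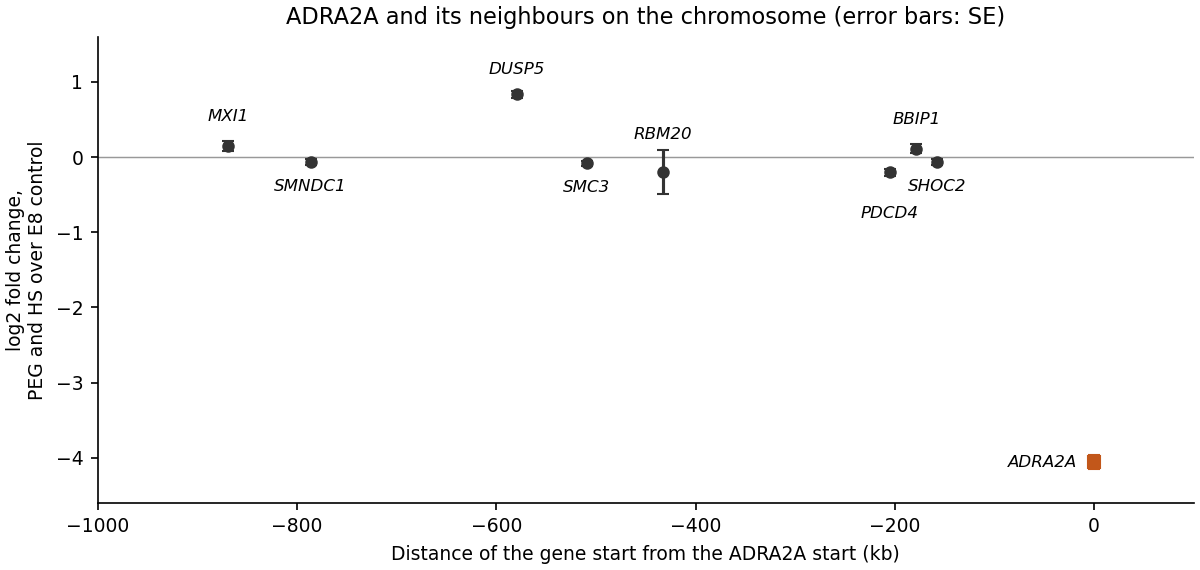
The log2 fold change (PEG and HS over E8 control, with its SE) of ADRA2A (square) and of the 8 genes that start within 1 Mb of it, against the distance of their starts in kb. Each start is the lower coordinate of the gene, whatever its strand. The neighbours lie between -0.20 and 0.83, and ADRA2A at -4.06.

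The machinery that adrenergic receptors act on was described with lists written from general knowledge. Of 120 listed genes 113 were tested, and 30 passed an adjusted p of 0.05, 16 higher and 14 lower in PEG and HS (26.5%, beside 25.3% of all genes tested). Their median LFC was -0.010 against 0.003 over all genes, and 22 of the 30 differed by less than 1.5-fold. Only 4 of the 30 changed by over 2-fold: KCNJ6, RGS5, PDE4C and ADCY6.

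The Gi and Go alpha subunits, through which alpha-2 receptors signal, were all abundant enough to test, and 3 of 5 were called lower. GNAI2 was at 289 ± 5.29 CPM with the additives and 323 ± 7.27 in E8 control (LFC -0.16, SE 0.027, adjusted p = 0.000476), GNAO1 at 65.8 ± 0.818 and 71.7 ± 3.83 CPM (LFC -0.12, SE 0.039, adjusted p = 0.0285), and GNAZ at 7.34 ± 1.26 and 9.09 ± 0.577 CPM (LFC -0.32, SE 0.11, adjusted p = 0.0427). GNAI1 (LFC 0.045, adjusted p = 0.692) and GNAI3 (LFC -0.025, adjusted p = 0.59) did not pass. GNAZ did not pass without E8 control replicate 1 (adjusted p = 0.104) or 3 (0.132), without PEG and HS replicate 1 (0.204) or 3 (0.0546), or with DESeq2 (0.0792). GNAO1 did not pass without E8 control replicate 2 (adjusted p = 0.134) or 3 (0.0773), or without PEG and HS replicate 1 (0.1) or 2 (0.0631). GNAI2, the most abundant of them, kept its call under each alternative run.

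Of the 2 Gs subunits, GNAS was slightly lower in PEG and HS (1070 ± 12.2 against 1140 ± 24.2 CPM, LFC -0.092, SE 0.025, adjusted p = 0.0128). It did not pass with E8 control replicate 1 left out (adjusted p = 0.0549). The other Gs subunit, GNAL, was not called. In the Gq and phospholipase C beta list, 2 of 8 were higher. GNA14, a Gq-type alpha subunit, rose from 14.9 ± 0.701 to 22.6 ± 0.320 CPM (LFC 0.61, SE 0.056, adjusted p = 9.93e-07). PLCB2 rose from 8.26 ± 0.550 to 11.9 ± 0.266 CPM (LFC 0.53, SE 0.072, adjusted p = 6.02e-05), while PLCB3, the most abundant of the list, did not pass (LFC 0.046, adjusted p = 0.285). Of 16 beta and gamma subunits tested, GNG4 (LFC 0.32, SE 0.035, adjusted p = 4.85e-06) and GNB4 (0.16, SE 0.037, adjusted p = 0.00517) rose, GNG7 fell (-0.35, SE 0.069, adjusted p = 0.00139), and the most abundant, GNB1, did not pass (0.034, adjusted p = 0.43).

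Adenylyl cyclases make cAMP, and 4 of 10 were called, 2 in each direction. ADCY6, a cyclase that Gi inhibits, was at 35.7 ± 1.75 CPM in E8 control and 15.8 ± 0.791 with the additives (LFC -1.18, SE 0.056, adjusted p = 4.91e-10). ADCY2, the cyclase with the highest CPM in PEG and HS, was at 44 ± 1.46 and 64.1 ± 1.32 CPM (LFC 0.54, SE 0.038, adjusted p = 4.15e-08). In both genes the ranges of the 2 media were apart. ADCY1 was lower (62.9 ± 2.65 against 57.0 ± 1.6 CPM, adjusted p = 0.0145) and ADCY5 higher (16 ± 0.596 against 18.1 ± 1.06 CPM, adjusted p = 0.0494), and both calls were marginal. ADCY1 did not pass without E8 control replicate 2 (adjusted p = 0.0725) or PEG and HS replicate 1 (0.0784), and ADCY5 did not pass without E8 control replicate 1 (0.0637), 2 (0.156) or 3 (0.105), without PEG and HS replicate 1 (0.17) or 2 (0.139), with DESeq2 (0.147), RLE factors (0.051) or filterByExpr (0.0532), or with the replicate number as a block (0.0612).

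Phosphodiesterases break cAMP down, and of 15 tested 3 were higher and 2 lower. PDE4B rose from 6.76 ± 0.334 to 10.7 ± 0.0455 CPM (LFC 0.66, SE 0.074, adjusted p = 7.48e-06). PDE3A fell from 16.6 ± 2.32 to 11.5 ± 1.16 CPM (LFC -0.53, SE 0.096, adjusted p = 0.000715) and PDE1B from 2.77 ± 0.292 to 1.62 ± 0.243 CPM (LFC -0.78, SE 0.17, adjusted p = 0.00368). PDE4C passed (adjusted p = 0.0381) with overlapping media, since its counts in E8 control were 6, 60 and 16 against 73, 47 and 91 in PEG and HS. It did not pass without E8 control replicate 1 (adjusted p = 0.12) or 3 (0.146), without PEG and HS replicate 1 (0.0981) or 3 (0.115), or with DESeq2 (0.296). PDE7A, the most abundant, did not pass (LFC 0.034, adjusted p = 0.514).

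Among 14 genes of protein kinase A, EPAC and CREB, RAPGEF3, which encodes the cAMP sensor EPAC1, rose (LFC 0.60, SE 0.097, adjusted p = 0.000274), as did PKIA, a kinase inhibitor (0.23, SE 0.058, adjusted p = 0.00796). The regulatory subunit PRKAR2B fell (-0.26, SE 0.045, adjusted p = 0.000541), and the most abundant, PRKAR1A, was at 160.1 ± 0.848 and 159.6 ± 1.16 CPM (adjusted p = 0.933). Receptor kinases and arrestins switch off active receptors, and 1 of 7 was called: ARRB1, or beta-arrestin 1, rose from 29.0 ± 2.33 to 43.1 ± 1.51 CPM (LFC 0.57, SE 0.055, adjusted p = 1.27e-06). GRK2, the most abundant of them, did not pass (LFC 0.084, adjusted p = 0.112).

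RGS proteins shorten G protein signals and GPSM proteins bind Gi alpha subunits. Of 19 tested genes of these families 2 were higher and 2 lower. RGS5 fell from 8.35 ± 0.919 to 3.08 ± 0.398 CPM (LFC -1.43, SE 0.12, adjusted p = 2.71e-07) and RGS16 rose (0.40, SE 0.079, adjusted p = 0.00149). RGS2 (LFC -0.22, adjusted p = 0.0244) was called lower and GPSM3 (0.37, adjusted p = 0.0334) higher. RGS2 did not pass without E8 control replicate 1 (adjusted p = 0.0517) or 3 (0.0853) or PEG and HS replicate 1 (0.118), nor GPSM3 without E8 control replicate 1 (0.111) or 3 (0.0661) or PEG and HS replicate 1 (0.112) or 2 (0.0927), and DESeq2 called neither (0.0977 and 0.112). RGS12, the most abundant, did not pass (0.011, adjusted p = 0.899). KCNJ6, a potassium channel subunit opened by Gi-released beta and gamma subunits, had 40, 55 and 56 counts in E8 control and 19, 15 and 17 in PEG and HS (LFC -1.56, SE 0.24, adjusted p = 0.000191), and the other 2 channels tested were under 1 CPM in every library.

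Of the enzymes that make noradrenaline and adrenaline, TH, DDC and DBH were scarce. TH, the first enzyme of the path, had 0, 2 and 1 counts in E8 control and 1, 3 and 3 in PEG and HS. DDC had 1, 7 and 4 counts in E8 control and 4, 7 and 3 in PEG and HS. DBH, which makes noradrenaline, had 12, 12 and 8 and 14, 2 and 25. PNMT was more abundant, at 1.72 ± 0.0747 CPM in E8 control and 1.25 ± 0.0735 in PEG and HS, and did not pass (adjusted p = 0.0968). Of the 14 genes for synthesis, transport and breakdown that were tested, GCH1, which makes the cofactor of TH, was called higher (10.9 ± 0.132 to 12.8 ± 0.693 CPM, adjusted p = 0.0175) and the monoamine transporter SLC22A3 lower (2.24 ± 0.299 to 1.52 ± 0.198 CPM, adjusted p = 0.0363). GCH1 did not pass without E8 control replicate 1 (adjusted p = 0.0536) or PEG and HS replicate 1 (0.0645) or 3 (0.0706), nor SLC22A3 without E8 control replicate 2 (0.14) or 3 (0.0826) or PEG and HS replicate 1 (0.111) or 2 (0.102), and DESeq2 called neither (0.0872 and 0.0979).

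For 17 genes listed as responding to cAMP and CREB or as CREB coactivators (CRTC1, CRTC2 and CRTC3), the median LFC was 0.016, beside 0.003 over all genes. Of these genes 3 were called (17.65%, beside 25.3% of all genes tested), all higher. They were PDE4B, FOS (5.0 ± 0.415 to 7.22 ± 0.458 CPM, LFC 0.53, SE 0.096, adjusted p = 0.000726) and PER1 (42.6 ± 2.36 to 47.3 ± 1.52 CPM, LFC 0.15, SE 0.046, adjusted p = 0.0224). PER1 did not pass without E8 control replicate 2 (adjusted p = 0.0627) or 3 (0.102) or PEG and HS replicate 2 (0.0898). The other 14 did not pass.

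**Figure D5:**
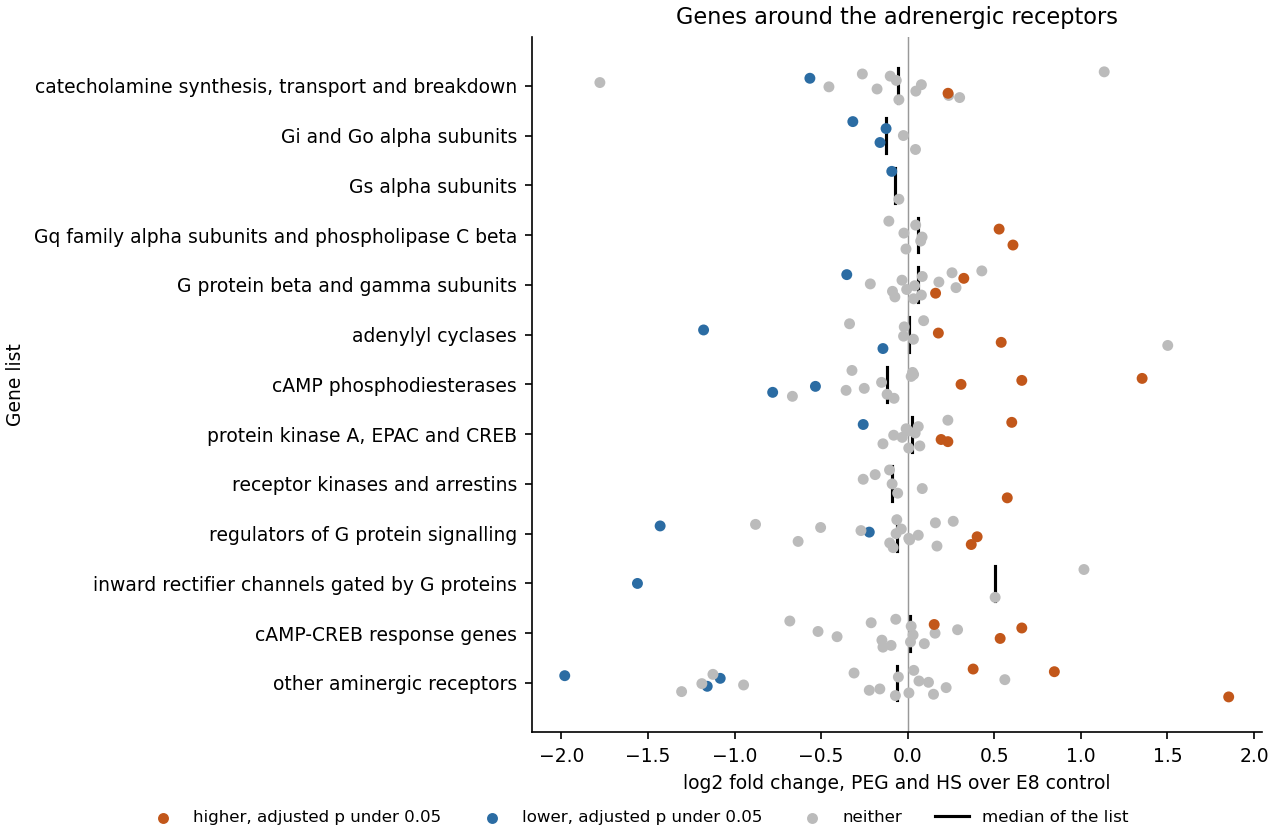
The log2 fold change of each tested gene in 13 lists of genes around the adrenergic receptors, coloured by whether the gene passed an adjusted p of 0.05, with a line at the median of each list; the vertical spread within a list has no meaning. Medians lie near 0 except for the 3 tested inward rectifier channels, and no gene reaches the fall of ADRA2A at -4.06.

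Markers of other cell types were set beside the fall of ADRA2A. Of 10 neuroectoderm markers 7 were called lower and 1 higher, among them LHX5 (LFC -2.37, SE 0.086, adjusted p = 2.25e-11), OTX2 (-2.10, SE 0.047, adjusted p = 2.08e-13) and SOX1 (-1.70, SE 0.15, adjusted p = 6.51e-07), and their summed level was 58.6 to 65.2 CPM in PEG and HS and 170.3 to 177.7 CPM in E8 control. The noradrenergic neuron markers summed to 85.1 to 87.8 CPM in PEG and HS and 81.4 to 86.1 CPM in E8 control, nearly all of it CHGA. TH and HAND2 had at most 3 counts in every library. Of the 7 noradrenergic markers tested 0 passed with edgeR or DESeq2, and 1 had an unadjusted p under 0.05. The 7 neural crest markers summed to 110 to 113 and 101 to 105.5 CPM, most of it FOXD3 and ETS1, which were called higher (LFC 0.32 and 0.16). ETS1 did not pass without E8 control replicate 1 (adjusted p = 0.067) or PEG and HS replicate 3 (0.0676). TFAP2A, a neural crest and surface ectoderm factor, fell from 6.00 ± 0.230 to 0.604 ± 0.269 CPM (LFC -3.30, SE 0.20, adjusted p = 9.84e-09), and was 1 of 2 markers called lower. The smooth muscle and endothelium list summed to 87.7 to 89.2 and 93.7 to 99.2 CPM, with 1 called higher and 2 lower, and that of mesoderm and endoderm to 4.52 to 4.74 and 4.92 to 5.23 CPM, where 0 of 6 passed with edgeR or DESeq2 and 2 had an unadjusted p under 0.05. The part of any of these cell types in the level of ADRA2A was not tested.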

How the data were processed

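Polyadenylated RNA of 6 bulk libraries was sequenced with a stranded kit. The authors trimmed reads with Trim Galore 0.6.7 and mapped them to GRCh38 with STAR 2.6.1, per the methods and the submitters' processing notes, and deposited raw counts per gene, 1 library per file. The counting tool, its strand setting and its handling of multi-mapped reads are not given in the sources used here. Of 19977 identifiers, 19916 matched GENCODE 44, which gave symbols, coordinates and exon lengths.

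Genes with at least 10 counts over the 6 libraries (16505 genes) were scaled by TMM and tested for medium alone by the quasi-likelihood functions of edgeR 4.0.16 (R 4.3.3; glmQLFit, glmQLFTest), and p-values were adjusted by Benjamini-Hochberg over all of them. The SE was taken from the fold change and its F statistic. Scripts were tested on simulated data. CPM is scaled to library size multiplied by its TMM factor, and not to length. CPM per kb divides it by exon length. Alternatives were DESeq2 1.42.0, RLE factors, library size alone, other filters, the replicate block and each library left out.

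The receptors and all lists were chosen with earlier results of these data known. Named genes are all receptors, the 2 called genes of largest change in each direction with at least 1 CPM and the most abundant gene of each list, the neighbours within 1 Mb, and the 5 nearest in pattern, besides the genes beside ADRA2A in rank of fall and marker lists by their sums with POU5F1, DBH, TH, SOX1, OTX2 and LHX5. GNAO1, GNAI1, GNAI3, GNAL, HAND2, CHGA, CHRM1, HTR1A, NANOG, SOX2, PODXL, LIN28A, TFAP2A, FOXD3 and ETS1 were named chosen after their values were seen. So were PNMT, DDC, CRTC1, CRTC2 and CRTC3. Not all genes under the naming rule are reported here.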

Additional observations from a re-analysis of the deposited data

How the results depend on the processing

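Calls by edgeR numbered 4173, and 3312 (DESeq2), 4162 (RLE factors), 4259 (library size alone), 4256 (genes with at least 1 count), 4264 (filterByExpr) and 3114 to 3674 with a library left out. The log2 fold change of ADRA2A lay between -4.26 (without PEG and HS replicate 3) and -3.94, that of ADRA1A between -1.25 and -0.93, and that of ADRA2B between -0.45 and -0.21. ADRA2C lay between -0.05 and 0.01, above 0 only without PEG and HS replicate 2. ADRA1D lay between -0.35 and -0.00, the latter without E8 control replicate 3. The receptors ADRA1B (0.47 to 1.42), ADRB1 (0.20 to 1.01) and ADRB3 (-4.76 to -1.05) had too few counts to be tested under some settings. Receptors called numbered 1 to 2 with a library left out, both in all and among those lower, and 2 under each other setting. Pathway calls were 21 to 30, and lower calls 9 to 14, with a library left out. Lower neighbours of ADRA2A were 2 with filterByExpr and 2 with the replicate block, and 1 to 2 with a library left out, the added gene being SMC3. Of 69 genes followed one by one, 53 kept their side of the threshold under each alternative run and 16 did not, with 0 reversals. A reversal was a change of sign where the main or the alternative run passed the threshold. Genes that did not pass could change sign, as DBH did, which lay between -0.42 and 0.76 with a library left out. The cause of the changed calls was not tested.

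The labels do not state that replicate numbers pair the libraries. Deviations of same-numbered libraries correlated at r = 0.0052, 0.0137 and 0.0039. These values show no shared deviation, but they cannot decide if the samples were paired when grown or prepared. With the replicate block 4444 genes were called, 31 of them in the pathway lists. Not every library correlated best with its own number. With few counts (ADRA1B, ADRB1, ADRB3), depth limits what can be read.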

Other observations

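Receptors for other amines give a setting for ADRA2A. Of 27 listed dopamine, serotonin, histamine, muscarinic and trace amine receptor genes, 22 were tested, of which 3 rose and 3 fell with the additives (27.3%, beside 25.3% of all genes tested). The lowest was HTR1D, a Gi-coupled serotonin receptor, with 485, 613 and 707 counts in E8 control and 135, 136 and 186 in PEG and HS (18.8 ± 0.809 against 4.77 ± 0.747 CPM, SD, n = 3 each, LFC, the log2 fold change, -1.98, SE 0.091, adjusted p = 3.28e-10 by edgeR). DRD4, a Gi-coupled dopamine receptor, fell from 3.05 ± 0.377 to 1.36 ± 0.131 CPM (LFC -1.16, SE 0.17, adjusted p = 0.00012). HTR7, a Gs-coupled serotonin receptor and the most abundant of these genes, rose from 33.9 ± 1.73 to 44.1 ± 0.298 CPM (LFC 0.38, SE 0.044, adjusted p = 1.32e-05). HTR2C, which is Gq-coupled, rose from 1.07 ± 0.167 to 1.95 ± 0.272 CPM (LFC 0.85, SE 0.21, adjusted p = 0.00762). CHRM1 (higher) and HTR1A (lower), both under 1 CPM in the 2 media, were the other calls, and each was lost under several alternative runs. CHRM1 did not pass without E8 control replicate 2 (adjusted p = 0.0883) or 3 (0.118), without PEG and HS replicate 2 (0.0563) or 3 (0.191), with the replicate block (0.0552) or with DESeq2 (0.0841). HTR1A did not pass without E8 control replicate 1 (adjusted p = 0.135) or 2 (0.154), without PEG and HS replicate 1 (0.149), 2 (0.0994) or 3 (0.0514), with the replicate block (0.07) or with DESeq2 (0.101).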
